A study of Rattus norvegicus with 6 samples.

Results

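The genes described here are 6 genes of the extracellular matrix, chosen by their rat Ensembl identifiers out of the 26405 genes of the expression table. They are the fibrillar collagen genes Col1a1 (ENSRNOG00000003897), Col1a2 (ENSRNOG00000011292) and Col3a1 (ENSRNOG00000003357), the fibronectin gene Fn1 (ENSRNOG00000014288), the gelatinase gene Mmp2 (ENSRNOG00000016695) and Timp1 (ENSRNOG00000010208), which encodes an inhibitor of matrix metalloproteinases. All 6 identifiers were in the table. Their symbols came with the choice of the identifiers, because the table lists identifiers alone and the gene table used for rat names holds no Ensembl identifiers.

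RNA-sequencing values were given for 3 control libraries and 3 Icariin libraries, labelled as primary smooth muscle cells of rat microvascular tissue. Icariin is a plant flavonoid. By the series description the cells came from wild-type rats, all cultures were starved of serum, controls then received fresh medium without serum, and RNA was taken at 24 h from the controls and at 48 h from the Icariin cultures, so treatment and time cannot be told apart. All libraries carry 1 batch label, a date. The labels call the replicates biological without stating how many animals gave cells, so p-values measure the spread between these cultures. The article on these data describes instead mouse C2C12 myotubes, treated for the same time as their controls, whereas the identifiers in the table are those of rat. The labelled cell type was not checked against smooth muscle, skeletal muscle or endothelial markers, since 0 of the 97 symbols in the lists of markers and other matrix genes could be paired with an identifier. For the same reason the other genes of the matrix were not analysed here.

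Fibrillar collagens are secreted as triple helices that assemble into the fibres giving the vessel wall its tensile strength. Type I collagen is built from the α1 and α2 chains that Col1a1 and Col1a2 encode, and type III collagen from the single chain encoded by Col3a1. Fibronectin binds collagens and integrins and forms the scaffold on which much of the matrix is laid down. Mmp2 encodes a secreted protease that cleaves denatured collagen and basement membrane, and Timp1 a secreted protein that blocks such proteases. In vessels, smooth muscle cells and fibroblasts are main sources of these proteins.

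Values were FPKM, which divide the fragments of a gene by the length of its transcript and by the size of the library, so that levels of different genes can be set side by side. Between 13432 and 14272 genes were above 0 per library, and the summed FPKM ranged from 313560 to 364489 once 9 values of 1e6 FPKM or more, none of them in these 6 genes, were left out. The depth of the libraries is unknown. RNA came from whole cultures, so fewer cells of a type and less RNA per cell cannot be told apart.

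Fn1 was the most abundant of the 6 genes in all 6 libraries and one of the most abundant of all genes. It was at 5918, 3928 and 4545 FPKM in Control 1, 2 and 3, and at 5030, 3866 and 3586 FPKM in Icariin 1, 2 and 3. The groups overlapped, and the highest library of a group exceeded its lowest by 1.51-fold among the controls and by 1.4-fold among the Icariin libraries. By FPKM, Fn1 ranked between 5th and 13th of all genes in each library. It made up between 62.9% and 95.9% of the summed FPKM of the 6 genes. That sum was between 1.42% and 1.97% of the summed FPKM of a library without the very high values left out above. Such values were in Control 1 (2), Control 2 (3), Icariin 2 (3) and Icariin 3 (1). There 1 of them alone exceeded the rest of the library's summed FPKM, so the share of the full sum was far lower.

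Col1a1 differed widely between replicates. Its level was 79.2 FPKM in Control 1, 1016 FPKM in Control 2 and 1094 FPKM in Control 3. With Icariin it was 40.6 FPKM in Icariin 1, 1796 FPKM in Icariin 2 and 1217 FPKM in Icariin 3. Each group thus held a library far below the other two, and the highest library exceeded the lowest by 13.8-fold among the controls and by 44.3-fold among the Icariin libraries. The rank of Col1a1 among all genes, by FPKM, ran from 25th in Icariin 2 to 1203rd in Icariin 1.

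Col1a2, which encodes the partner chain of type I collagen, did not share this pattern. It was at 55.9, 43.5 and 103 FPKM in Control 1, 2 and 3, and at 57.0, 9.67 and 41.7 FPKM in Icariin 1, 2 and 3. The lowest value of Col1a2 was in Icariin 2, the library in which Col1a1 was highest. In Control 1 and Icariin 1, where Col1a1 was low, Col1a2 was exceeded only by Control 3.

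Col3a1 was at 115, 6.97 and 359 FPKM in Control 1, 2 and 3 and at 477, 464 and 310 FPKM in Icariin 1, 2 and 3. The Icariin libraries lay within 1.54-fold of each other, whereas the controls spanned 51.5-fold. Control 2 stood far below all other libraries, and Control 3 was above Icariin 3, so the groups overlapped.

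Mmp2 was the only 1 of the 6 genes whose groups did not overlap. It was at 2.47, 0.369 and 0.509 FPKM in Control 1, 2 and 3, and at 8.46, 14.8 and 16.7 FPKM in Icariin 1, 2 and 3. Every Icariin library was thus above every control, and the mean FPKM was 12-fold higher. With 1 library left out it was between 8.96-fold, without Control 2, and 30.4-fold, without Control 1. These leave-out ratios were added after the data were seen. The controls averaged 1.12 ± 1.17 FPKM (SD, n = 3) and the Icariin libraries 13.3 ± 4.34 FPKM (SD, n = 3). Mmp2 stood in the lower part of the expressed genes in the controls, between the 19.6 and the 45.6 percentile of genes above 0, and between the 68.6 and the 80.2 percentile in the Icariin libraries.

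Timp1 was listed at 0 FPKM in all 6 libraries, as were 10638 genes (40.3% of the table). The values do not show whether no fragment came from Timp1 or whether none was assigned to it. Cultured smooth muscle cells and fibroblasts are known to express Timp1 readily, and whether the deposited values hold an error was not tested, which bears on every value given here. No ratio of Mmp2 to Timp1 could be formed.

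**Figure D1:**
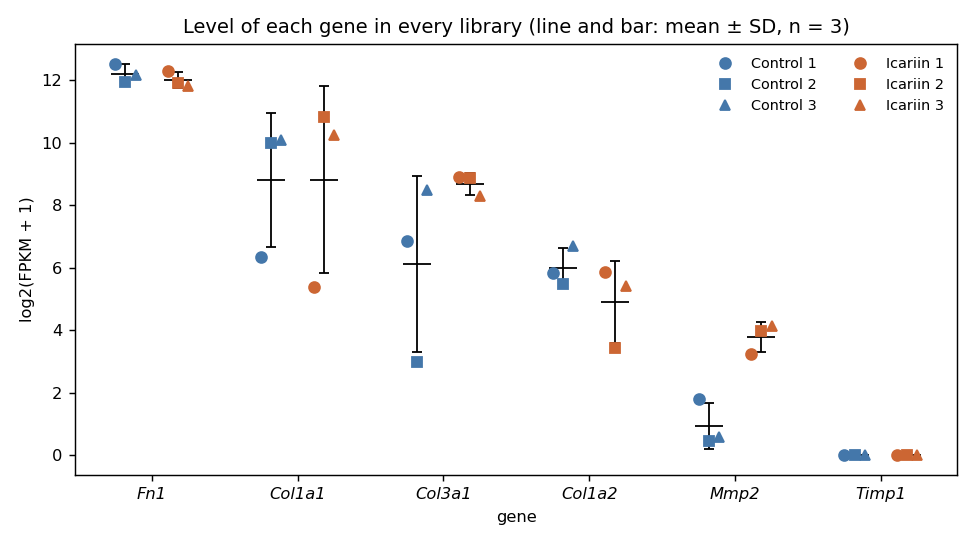
Level of the 6 genes in log2(FPKM + 1), with 1 symbol per library, controls in blue and Icariin in orange, and the mean ± SD of each group (n = 3) in black. Fn1 sits near 12 in every library, Col1a1 splits into low values in Control 1 and Icariin 1 and high values elsewhere, the Mmp2 groups are apart, and Timp1 is at 0 throughout.

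The order of the genes below Fn1 was not fixed. Col1a1 was above Col3a1 in 2 of 3 controls and in 2 of 3 Icariin libraries, and above Col1a2 in 3 of 3 controls and 2 of 3 Icariin libraries. Col3a1 exceeded Col1a2 in 2 of 3 controls and 3 of 3 Icariin libraries. Neighbours in this order, from Col1a1 through Col3a1 to Col1a2, therefore did not keep it in every library, and differences in level between genes were not tested. Mmp2 was below the 3 collagen genes in every library other than Icariin 2, where it exceeded Col1a2, and it was above Timp1 in all of them.

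The comparison of the groups asked whether Icariin cultures differed from controls in these transcripts. It used limma on log2(FPKM + 1) over 10258 genes, those reaching 1 FPKM in 3 or more libraries, and fold changes on this scale understate the change of low genes. Of the 6 genes, 5 were tested and Timp1 failed the filter. Mmp2 reached 1 FPKM in 4 libraries, all 3 Icariin libraries among them, so the group in which it was high was enough for it to pass. A call required an adjusted p under 0.05 together with a log2 fold change beyond 1 in either direction. Of the 5 genes 0 were called by limma, as were 0 (0%) of all 10258 genes tested. The article, which names DESeq2 and the same thresholds, reports genes changed in both directions, whereas limma on log2(FPKM + 1) was used here. Why the results differ was not tested. An unadjusted p under 0.05 in limma was reached by 1069 genes. With the fold threshold added, 2 of the 5 genes passed, Col3a1 and Mmp2, against 1032 of all genes tested (10.1%). Mmp2 also passed in all 17 alternative fits at these thresholds, whereas Col3a1 passed in 4 and failed in 13. Groups without overlap were seen in 1 of the 5, Mmp2, and in 16.9% of all genes tested, so this count was near the background. The median log2 fold change was 0.0088 over the 5 genes and 0.11 over all genes tested.

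Mmp2 had a log2 fold change of 2.84 in FPKM + 1 (standard error 0.67, 95% interval 1.39 to 4.30). Its adjusted p in limma was 0.147, its unadjusted p ranked 71st of the 10258 genes, and its fold change was above that of 99.4% of them. In the exact two-sided permutation test over the libraries p was 0.1, the smallest that 3 against 3 allows. The direction was higher with Icariin in 3 of 3 libraries, but a difference of this size did not pass the correction over all genes.

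Col3a1 had a log2 fold change of 2.57 in FPKM + 1 (standard error 1.18, 95% interval 0.011 to 5.12), with an adjusted p of 0.476 in limma and an exact permutation p of 0.2. The standard error from limma draws on the spread of genes at like levels. The SD between the replicates of Col3a1 itself was 2.01, so the interval is narrower than its own libraries would give. The difference in Col3a1 rested largely on Control 2. Without Control 2 it was 1.01, with an adjusted p of 0.773 in limma, and without Control 3, the highest control, it was 3.75, with an adjusted p of 0.367 in limma.

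Col1a2 was lower with Icariin by a log2 fold change of -1.10 (standard error 0.83, 95% interval -2.90 to 0.69, adjusted p = 0.680 in limma, exact permutation p = 0.3). Without Icariin 2, where it was lowest, the value was -0.36.

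For Col1a1 the log2 fold change was 0.0088 (standard error 1.42, 95% interval -3.08 to 3.10, adjusted p = 0.999 in limma). The SD between its own replicates was 2.60, so this interval too is narrower than its own libraries would give. The data thus neither showed a difference in Col1a1 nor bounded it closely. The 3 other scalings between libraries, which lower the fold changes of most genes by a like amount, gave between -0.14 and -0.12. Left out in turn, the single libraries moved the value between -1.23, without Control 1, and 1.73, without Icariin 1.

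Fn1 had a log2 fold change of -0.20 (95% interval -2.14 to 1.74, adjusted p = 0.961 in limma, exact permutation p = 0.5). The standard error of 0.89 that limma gave it draws on the spread of genes at like levels, while the SD between its own replicates was 0.28, so the interval is wider than its own libraries would give.

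**Figure D2:**
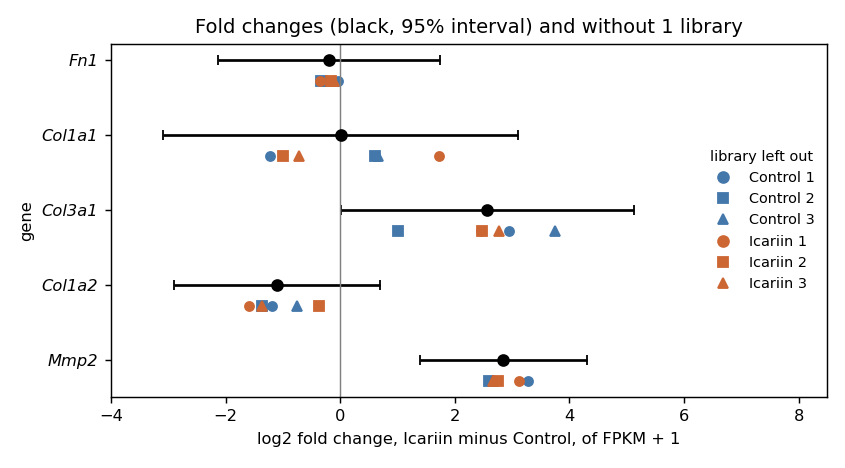
Log2 fold change of FPKM + 1, Icariin minus Control, of the 5 genes tested. Black points and bars are the limma estimate and its 95% interval, and coloured symbols below each are the estimate without 1 library. The interval of Mmp2 (1.39 to 4.30) is clear of 0 and its leave-out values stay within 2.60 to 3.27, while those of Col1a1 lie on both sides of 0.

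The spread between replicates differed widely among these genes. The pooled SD of log2(FPKM + 1) within groups was 2.60 for Col1a1, larger than that of 99.6% of the genes tested, and 2.01 for Col3a1, larger than that of 97.8%. Among the 1026 most highly expressed of them, the top decile, whose median SD was 0.99, these SDs were above those of 97.7% and 92.4%. The SD of Col3a1 rested on Control 2 and was 0.72 without it, while that of Col1a1 lay between 1.77 and 2.88 when 1 library was left out. Col1a2 lay near the middle of that decile, with an SD of 1.02, or 0.55 without Icariin 2. Fn1, at 0.28, varied less than most, with only 2.14% of the highly expressed genes below it. The SD of Mmp2 was 0.62, or 0.40 without Control 1, against a median of 0.83 over all genes tested, on a scale that compresses its low control values.

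**Figure D3:**
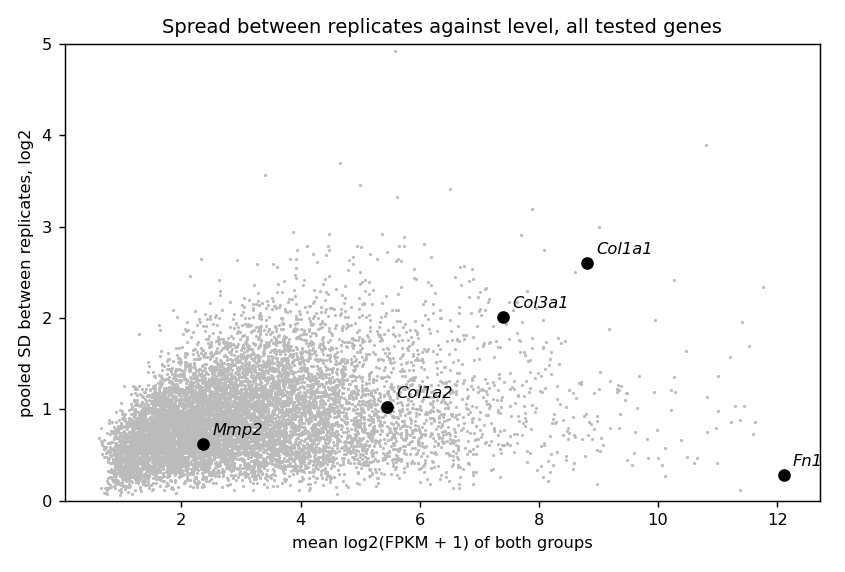
Pooled SD of log2(FPKM + 1) between replicates against the mean level of both groups, for all 10258 tested genes (grey, 4 genes outside the axes) and the 5 matrix genes (black). Col1a1 and Col3a1 lie above most of the highly expressed genes, and Fn1, the most abundant of the 5, near their lower edge.

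Ratios within a library do not depend on a factor applied to the whole library, and they varied widely too. Col1a1 over Col1a2 was 1.42, 23.4 and 10.6 in Control 1, 2 and 3. It was 0.711, 186 and 29.2 in Icariin 1, 2 and 3, so that the highest ratio exceeded the lowest by 261-fold for genes whose products are chains of one protein. Whether the cells or the making of the table gave this variation was not tested. Its log2 mean was 2.82 ± 2.08 (SD, n = 3) in the controls and 3.97 ± 4.09 (SD, n = 3) with Icariin, a difference of 1.15 that was within the spread (exact permutation p = 0.7, adjusted p = 0.8 over 3 ratios). Without Control 1 the difference was -0.0071 and without Icariin 2 it was -0.63.

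The ratio of Col1a1 to Col3a1 was 0.688, 146 and 3.05 in the controls and 0.0849, 3.87 and 3.93 in the Icariin libraries, in the same order. It thus differed by 1720-fold between its extremes, Control 2 and Icariin 1, and the difference between groups of -2.63 in log2 was within the spread (exact permutation p = 0.6, adjusted p = 0.8). Fn1 over Col1a1 was 74.7 in Control 1 and 124 in Icariin 1, and between 2.15 and 4.16 in the other libraries. The difference between groups was -0.20 in log2 (exact permutation p = 0.8, adjusted p = 0.8), and it turned positive without Control 1, without Icariin 2 and without Icariin 3.

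**Figure D4:**
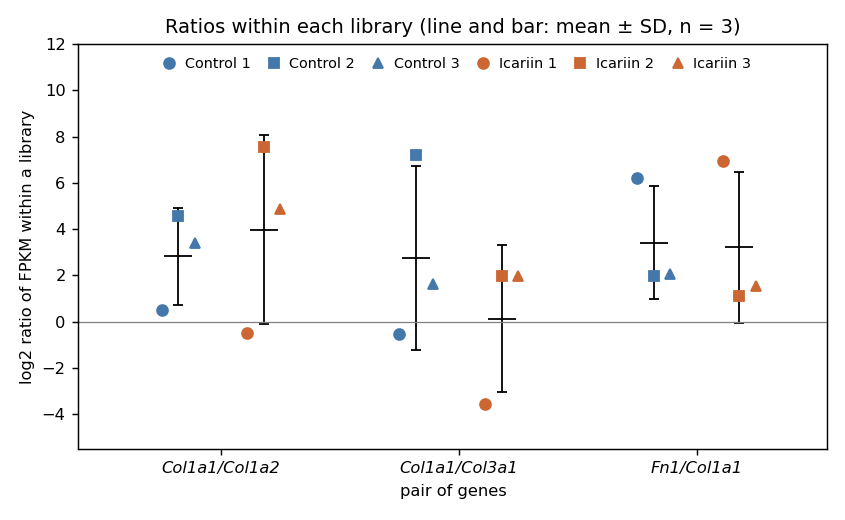
Log2 ratio of FPKM within each library for 3 pairs of genes, with 1 symbol per library and the mean ± SD of each group (n = 3) in black. For Col1a1/Col1a2 the values run from -0.49 in Icariin 1 to 7.54 in Icariin 2, and the groups overlap for all 3 pairs.

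Correlations across the 6 libraries were computed for 10 pairs of genes, and are given for the 6 pairs without Mmp2, whose libraries fell into separate groups. Col1a1 and Col1a2, on the log2(FPKM + 1) scale, showed no positive correlation. Pearson's r was -0.378 (exact permutation p = 0.535, adjusted p = 0.945) and Spearman's rho was -0.657 (exact permutation p = 0.175, adjusted p = 0.583). Without the 2 libraries farthest from the median of Col1a1, r was -0.88. The largest correlation of the 6 pairs, between Col1a1 and Fn1, was negative and did not pass the adjustment, with r = -0.838 (exact permutation p = 0.0472, adjusted p = 0.472) and rho = -0.829 (exact permutation p = 0.0583, adjusted p = 0.583). That relation rested on Control 1 and Icariin 1, the libraries low in Col1a1 and high in Fn1, since r was -0.302 without the 2 libraries farthest from the median. On deviations from the group means r was -0.914 (exact permutation p = 0.111). In the 4 other pairs r was between -0.129 and 0.458. Of these, Col1a2 and Fn1 reached 0.939 without the 2 libraries farthest from the median and 0.717 after quantile normalization, and Col3a1 and Fn1, at 0.0964 over all libraries, reached 0.538 without the 2 farthest and 0.476 on deviations from the group means.

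The genes most like the mean of these genes were sought as those with the highest Pearson r over the 6 libraries. The mean was that of the standardized values of the 5 genes above 0. They were ENSRNOG00000019712 (r = 0.999) and ENSRNOG00000046533 (r = 0.990), which the table does not name. ENSRNOG00000019712 was at 3.23, 0.679 and 4.25 FPKM in Control 1, 2 and 3 and at 3.65, 2.88 and 3.98 FPKM in Icariin 1, 2 and 3. It thus shared with the mean of the 5 genes a low value in Control 2. That mean is not a pattern common to the 5 genes. In Control 2, Col3a1 (6.97 FPKM) and Mmp2 (0.369 FPKM) were at their lowest, while Col1a1 was at 1016 FPKM. Among 10253 genes compared, 51 had an r over 0.95, and with 6 libraries such values are a description only.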

How the data were processed

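The authors deposited 1 table of FPKM values with a column for each of 6 libraries, 3 controls and 3 Icariin. The submitters' processing notes name Bowtie2, RSEM 1.3.1 and DESeq2 1.4.5. The genome build of the rat identifiers is not given in the sources used here. Whole reads could not be recovered from the low values, since at most 0.261% of genes below 1 FPKM shared a ratio between libraries, so the depth is unknown and precision rests on 3 libraries per group. Of 26407 rows, 2 repeats were dropped. Differential expression used limma 3.58.1 in R 4.3.3 (lmFit and eBayes with a trend) on log2(FPKM + 1), with Benjamini-Hochberg adjustment over 10258 genes. Two-sided exact permutation tests of single genes, ratios and correlations used scipy 1.17.1 and numpy 2.4.6. The limma code was tested on simulated data, with a pass required only at a spread below that observed, so this does not show its power here. The 6 genes are all named, and the 2 genes most like their mean were chosen by correlation. Genes, lists, tests and alternatives were chosen with earlier results of these data known. Alternatives covered pseudocount, filter, scaling, limma settings, the replicate number as a block and each library left out over the same genes. No promoter or protein sequence is shown, since no result turned on one.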

Additional observations from a re-analysis of the deposited data

How the results depend on the processing

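In limma, 0 genes were called under all 17 alternative fits. At unadjusted p under 0.05 with the fold threshold kept, 1032 genes passed, Col3a1 (2.57) and Mmp2 (2.84) among them. The log2 fold change of Mmp2 stayed between 2.60 and 4.03, the highest with a pseudocount of 0.01, and its adjusted p between 0.143 and 0.367. That of Col1a1 turned to -0.14 with median-of-ratios scaling, -0.12 with quantile normalization, -0.12 with equal totals and -0.063 with array weights. The scalings moved the median of all genes from 0.11 to between -0.0075 and 0.0082, while array weights left it at 0.11. Across the fits without 1 library, the fold change ranged from -1.23 to 1.73 for Col1a1, -1.58 to -0.36 for Col1a2, 1.01 to 3.75 for Col3a1, -0.34 to -0.038 for Fn1 and 2.60 to 3.27 for Mmp2, and the number called was 0 in each. The log2 ratios between groups ranged from -0.63 to 3.38 for Col1a1/Col1a2, -4.28 to -0.41 for Col1a1/Col3a1 and -2.08 to 1.20 for Fn1/Col1a1. The correlation of Col1a1 with Col3a1 turned to 0.60 without the 2 libraries farthest from the median, and that of Col1a2 with Col3a1 to 0.42 in the same way and to 0.35 on deviations from the group means. The cause of these shifts was not tested. The replicate block left 0 genes called (979 against 1032 at unadjusted p with the fold threshold) and Mmp2 at 2.84 with an adjusted p of 0.242 in limma. Same-numbered libraries deviated together at r = -0.0203, 0.0213 and -0.0196, so no pairing by number was seen over all genes. Whether same-numbered cultures were made together is not shown by these values. With the block the limma standard error fell for Col1a1 (0.90 against 1.42) and Col3a1, and rose for Col1a2, Fn1 and Mmp2.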
